A study of Mus musculus with 16 samples.

Results

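Chromatin accessibility of pancreatic islets was compared between NZO and B6 mice in ATAC-seq peak lists from 4 samples, 2 of each strain, out of 16 samples of 8 inbred founder strains. The NZO group was 1 female and 1 male of NZO/HlLtJ, and the B6 group was 1 female and 1 male of C57BL/6J. Each sample was a bulk preparation of 50 islets that was transposed and frozen before any library was made. Neither group carried a transgene or a treatment per the labels, and the age of the mice was not given in the sources used here. Overlapping peaks of the 4 lists were merged on chromosomes 1 to 19, which gave 205341 regions, beside 358621 when all 16 lists were merged. Of the 205341 regions, 64096 were called in all 4 samples, 6784 in both NZO samples and neither B6 sample, and 6495 in both B6 samples and neither NZO sample. The 2 samples of a strain differ in sex, nothing in the labels ties them to separate litters or days, and p-values measure only the spread between these samples.

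NZO is a polygenic model of obesity whose males in particular are prone to type 2 diabetes, and B6 is the strain whose genome is the mouse reference. Beta cells, which secrete insulin in response to glucose, make up most of a mouse islet, beside alpha, delta and PP cells, vessels and immune cells. In ATAC-seq a transposase inserts adapters into DNA that is not packed on nucleosomes, so promoters and enhancers in use collect reads. The deposited peak signal is a whole number at the summit of a peak. A region with no peak in a list is one where no peak passed the threshold of the authors, which does not show that the chromatin was closed. In bulk islets, fewer cells of a type and less accessibility per cell cannot be told apart.

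The reference sequences below are those around the summits of the regions with the largest differences and of the strongest regions listed in 1 strain, so that their base composition can be seen beside the values. Each is 300 bases of the plus strand of GRCm38 (mm10), in lower case, with capitals for exact matches on either strand to the motif letters that were searched. The capitals in the first are NFY letters (CCAAT), and in the second AP-1 letters (TGANTCA). The third, which is lower in NZO, holds the FOXA letters TGTTTAC and the GATA letters AGATAA. The fourth holds AP-1 letters that overlap MAF letters (TGCTGAC) in copies of a short repeated unit. The fifth holds NeuroD E-box letters (CAGATGG) beside letters of NFY, AP-1 and GATA. The sixth holds an E-box (CACGTG). The seventh is a region that lay wholly in bases marked as repeats, with PDX1/NKX (TAATTA) and STAT (TTCNNNGAA) letters at its sides. In windows of the same length over all 205341 regions, NFY letters were in 35.4%, AP-1 in 21.1%, GATA in 17.3%, STAT in 10.2%, PDX1/NKX in 9.71%, NeuroD in 8.57%, FOXA in 7.48%, MAF in 6.86% and the E-box in 4.70%.
Gsg1-near, higher in NZO, chr6:135279306-135279605: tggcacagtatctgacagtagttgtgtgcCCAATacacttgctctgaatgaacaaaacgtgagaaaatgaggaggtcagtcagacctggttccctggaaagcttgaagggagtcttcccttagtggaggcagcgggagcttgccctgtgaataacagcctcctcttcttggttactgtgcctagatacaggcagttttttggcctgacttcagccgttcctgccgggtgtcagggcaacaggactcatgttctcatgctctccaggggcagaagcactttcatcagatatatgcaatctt
Csmd1 exon, higher in NZO, chr8:15914655-15914954: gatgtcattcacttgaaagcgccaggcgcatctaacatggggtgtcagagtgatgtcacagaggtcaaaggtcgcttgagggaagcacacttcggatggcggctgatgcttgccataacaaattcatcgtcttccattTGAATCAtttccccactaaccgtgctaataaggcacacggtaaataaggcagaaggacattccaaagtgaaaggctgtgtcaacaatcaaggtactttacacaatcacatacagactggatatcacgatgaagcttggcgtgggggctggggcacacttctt
Sema3e-near, lower in NZO, chr5:13959615-13959914: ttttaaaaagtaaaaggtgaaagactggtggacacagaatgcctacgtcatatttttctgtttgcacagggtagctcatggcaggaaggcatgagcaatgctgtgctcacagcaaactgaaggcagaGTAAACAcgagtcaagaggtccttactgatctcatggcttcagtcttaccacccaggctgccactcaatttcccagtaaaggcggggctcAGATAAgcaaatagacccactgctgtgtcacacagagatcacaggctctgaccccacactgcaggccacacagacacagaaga
Cwc27 intron, called in NZO only, chr13:104742879-104743178: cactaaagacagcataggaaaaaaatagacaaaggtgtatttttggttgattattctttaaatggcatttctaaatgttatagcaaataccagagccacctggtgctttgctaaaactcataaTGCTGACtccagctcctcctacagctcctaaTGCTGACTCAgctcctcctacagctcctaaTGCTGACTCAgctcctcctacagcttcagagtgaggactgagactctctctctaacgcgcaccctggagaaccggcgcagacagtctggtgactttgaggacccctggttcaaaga
Fignl1-near, called in NZO only, chr11:11794687-11794986: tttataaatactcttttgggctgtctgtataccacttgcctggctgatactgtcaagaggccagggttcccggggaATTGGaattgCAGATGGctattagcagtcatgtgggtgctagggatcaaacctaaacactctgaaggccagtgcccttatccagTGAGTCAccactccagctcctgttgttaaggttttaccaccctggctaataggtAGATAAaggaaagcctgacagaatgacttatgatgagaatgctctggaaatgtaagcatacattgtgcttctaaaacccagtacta
Rprl3 start, called in NZO only, chr8:3803136-3803435: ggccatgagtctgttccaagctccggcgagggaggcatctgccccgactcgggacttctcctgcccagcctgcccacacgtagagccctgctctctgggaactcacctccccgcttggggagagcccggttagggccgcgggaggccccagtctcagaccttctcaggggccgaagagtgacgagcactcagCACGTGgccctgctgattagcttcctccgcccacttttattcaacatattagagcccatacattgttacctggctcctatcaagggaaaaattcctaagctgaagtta
Chl1-near, called in B6 only, chr6:103314508-103314807: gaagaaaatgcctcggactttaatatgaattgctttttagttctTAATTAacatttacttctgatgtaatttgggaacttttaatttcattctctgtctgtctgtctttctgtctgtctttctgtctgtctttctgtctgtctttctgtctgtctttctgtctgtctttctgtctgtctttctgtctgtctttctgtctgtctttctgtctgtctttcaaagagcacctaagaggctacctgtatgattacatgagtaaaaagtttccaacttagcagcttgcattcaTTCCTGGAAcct

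The NZO male stood apart from the other 3 samples. Its list was the longest, with 141307 peaks, against 106539 in the NZO female, 117672 in the B6 female and 108920 in the B6 male. It alone held 50567 of the 205341 regions, whereas the B6 female alone held 21156, the B6 male 15708 and the NZO female 9593. Over the 64096 shared regions, the log2 signal of the NZO male correlated with that of the NZO female at r = 0.823 and with that of the B6 male at r = 0.688. The NZO female and the B6 female correlated at 0.901 and the B6 samples with each other at 0.893, where regions of a library are not independent and no test was made. The NZO female was thus nearer to either B6 sample than to the NZO male. In the NZO male the median signal within 1000 bases of a start site, centred on the median of the sample, was 1.41 on the log2 scale, against 0.97 in the NZO female, 1.06 in the B6 female and 0.78 in the B6 male.

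Signal at markers of leukocytes, duct and acinar cells was also largest in the NZO male. At the start sites of 16 leukocyte markers, 7 had a region in any of the 4 lists, and the NZO male had a peak at all 7, the NZO female and the B6 female at 3 and the B6 male at 2. The 7 were counted over the 4 lists together, the longest being that of the NZO male, so its full count was partly fixed in advance. The summed scaled signal of these markers, that is the signal over the median of the sample, was 6.4 in the NZO male, 1.32 in the NZO female, 1.11 in the B6 female and 0.893 in the B6 male. Over all coding genes the NZO male also had the most start sites with a peak (13863, against 12439 to 13076). Its sum over them was also the largest (60949, against 48324 to 53377). Duct markers summed to 6.02 in the NZO male and 2.04 to 3.05 in the other 3 samples, and acinar markers to 4.42 and 2.79 to 3.16. Fibroblast markers summed to 3.02 and 1.36 to 1.91, the only Schwann cell marker with a region to 2.55 and 1.82 to 2.16, and endothelial markers to 0.625 in the NZO male and 0.643 to 1.12 in the others. The endocrine markers, with 10 of 12 start sites called in all 4 samples, summed to 20.0 in the NZO male, 28.2 in the NZO female, 29.2 in the B6 female and 24.4 in the B6 male. The part of these values in the results below was not tested.

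The number of peaks did not separate the strains. NZO samples held 123923 ± 24585 peaks (SD, n = 2) and B6 samples 113296 ± 6189, which are 10627 apart (p = 1.000, two-sided, from the exact permutation test of the 6 splits). With 2 samples a strain the smallest p this test can give is 0.333. The lists covered 46.3 and 49.6 Mb in the NZO female and male and 50.9 and 47.0 Mb in the B6 female and male. The lists hold no read totals, so the depth behind the value of a sample is unknown here.

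Chromosome 19 differed between the strains along its whole length. The median NZO minus B6 difference of its 1375 regions called in all 4 samples was 0.85 on the log2 scale, against -0.19 to 0.34 for chromosomes 1 to 18. The centred median of chromosome 19 was 0.47 in the NZO female, 0.53 in the NZO male, -0.28 in the B6 female and -0.41 in the B6 male. Both NZO samples lay above both B6 samples, and the means were 0.50 ± 0.04 and -0.34 ± 0.09 (SD, n = 2). The difference of 0.84 gave p = 0.333 in the exact permutation test, two-sided, which is the smallest p that 2 against 2 samples can give.

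The shift was present in both sexes. In females the chromosome 19 median was 0.68 and the other chromosomes ran from -0.14 to 0.06. In males it was 0.95 and the others ran from -0.34 to 0.71, the highest of these being chromosome 11, where the female value was -0.05. Both NZO samples lay above both B6 samples in 979 of the 1375 regions (71.2%), beside 18.0% over all 64096 regions and 12.4% to 27.2% on the other chromosomes. Both NZO samples lay below both B6 samples in 1.82% of chromosome 19 regions, beside 24.1% over all regions.

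**Figure D1:**
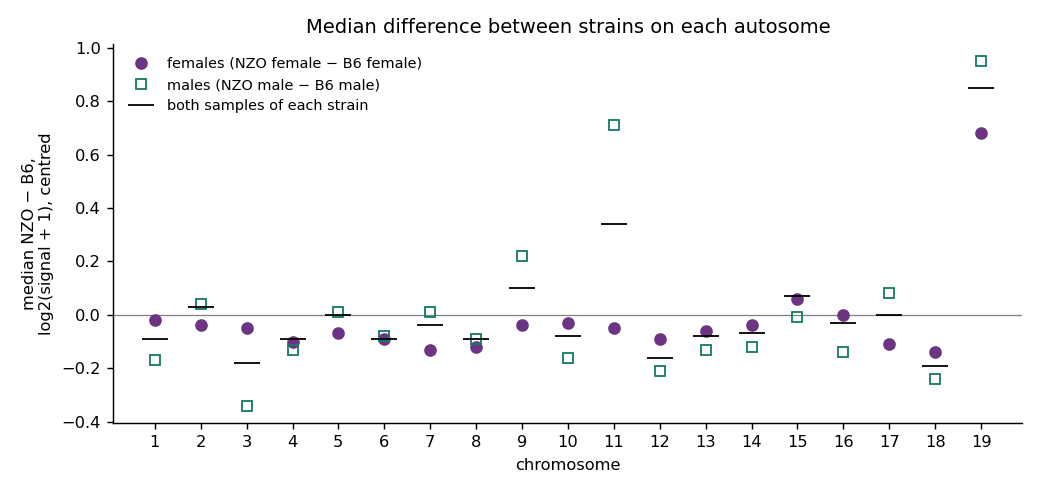
Median NZO minus B6 difference in log2(signal + 1), centred on each sample, over the regions of each autosome called in all 4 samples. Filled circles compare the females, open squares the males, and short lines both samples of each strain. Chromosome 19 is the highest for both sexes (0.68 and 0.95), and chromosome 11 is high in males (0.71) but not in females (-0.05).

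The shift was spread along the chromosome. All 13 windows of 5 Mb on chromosome 19 had a positive median in both sexes, from 0.51 in the window of 20 to 25 Mb to 1.17 in that of 5 to 10 Mb. The calls had the same direction. Of the 4454 merged regions of chromosome 19, 485 were called in both NZO samples and no B6 sample (10.9%) and 35 in both B6 samples and no NZO sample (0.786%). On the other chromosomes these shares were 2.07% to 5.81% and 1.73% to 4.29%. Chromosome 19 held 2.63% and 2.71% of the peaks of the NZO female and male, and 1.76% and 1.60% of those of the B6 female and male.

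The other strains were set beside these values. Over the regions called in all 16 samples, the centred median of chromosome 19 was -0.46 and -0.66 in the B6 female and male, which were the lowest of the 16. The 129 samples followed at -0.23 and -0.35, and the PWK samples at -0.07 and -0.04. The NZO female was at 0.21 and the NZO male at 0.48, within the range of 0.21 to 0.48 of NOD, AJ, CAST and WSB.

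**Figure D2:**
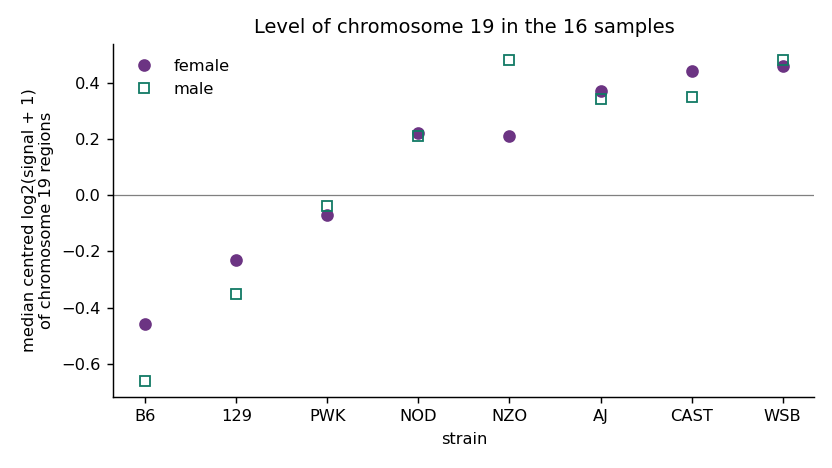
Median centred log2(signal + 1) of chromosome 19 regions in each of the 16 samples, over regions called in all 16, by strain, with circles for females and squares for males. Both B6 samples (-0.46 and -0.66) lie below all others, and both NZO samples (0.21 and 0.48) lie with NOD, AJ, CAST and WSB.

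The size of the shift depended on the scale and its sign did not, in the alternatives run. It was 0.71 over regions more than 3000 bases from a start site, 0.71 with centring within bins of GC content, 0.78 with separate centring of promoters and other regions, 0.88 with quantile normalization and 0.55 with the deposited mean signal. The cause of the shift was not tested. Because most chromosome 19 regions share it, differences there are also given below with each chromosome centred on its own median.

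Single regions were tested with limma on the 64096 regions called in all 4 samples. In NZO, 53 regions (0.0827%) were higher and 62 (0.0967%) lower at a Benjamini-Hochberg adjusted p under 0.05, and 7466 had an unadjusted p under 0.05. For each of the 115 called regions both NZO samples lay on 1 side of both B6 samples, so the female and the male difference had the same sign. The test chose the regions by these same 4 values, so this is no separate support, here or for the single regions below. Over all 64096 regions both NZO samples lay above both B6 samples in 18.0% and below in 24.1%. The median difference of the higher regions was 2.12 between the females and 2.34 between the males, and that of the lower regions -1.80 and -2.86, beside -0.05 and -0.05 over all 64096 regions. Without the NZO male the fit called 0 regions (1908 at an unadjusted p under 0.05), and without the NZO female also 0 (12372). With no intensity trend in the variance model 0 regions were called (6543 at an unadjusted p under 0.05).

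**Figure D3:**
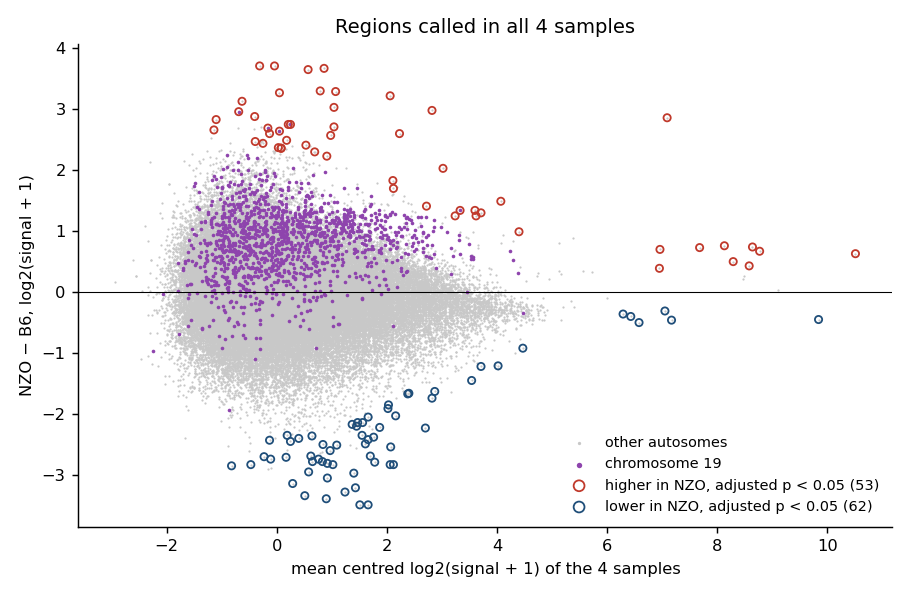
Each of the 64096 regions called in all 4 samples, by its mean centred log2(signal + 1) over the 4 samples and by its NZO minus B6 difference. Purple points are chromosome 19, which lies above 0 with a median of 0.85, and rings mark the 53 higher and 62 lower regions. At the right, 16 called regions with a signal over 50 times the median of every sample differ by small amounts, apart from 1 at 2.86.

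The region with the largest gain in NZO lay between genes, 24730 bases from the start site of Gsg1, a germ cell associated gene (chr6:135279081-135280200). Its summit signal was 216 in the NZO female and 132 in the NZO male, and 12 and 17 in the B6 female and male. The NZO values exceed those of B6 in either sex, with a log2 difference of 3.71 (SE 0.46, limma adjusted p = 0.00138). The region is 6.25% repeat, and the bases at its summit are printed first above. The region was called in both samples of 129, AJ, CAST, NOD and WSB, with a median scaled signal of 3.04 over the 12 other samples.

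An exon of Csmd1, which encodes a large membrane protein that restrains complement, held a region higher in NZO (chr8:15913904-15915349). Its signal was 443 and 219 in the NZO female and male and 27 and 29 in the B6 female and male, a log2 difference of 3.67 (SE 0.42, limma adjusted p = 0.000776). The groups are far apart in both sexes. The nearest coding start site is that of Myom2, at 856251 bases.

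The next regions higher in NZO lay near 3 genes of unlike roles. By Gm9275, 75884 bases from the protocadherin gene Pcdh20, the signal was 358 and 179 in NZO against 20 and 26 in B6 (log2 difference 3.65, SE 0.44, limma adjusted p = 0.00114). In an intron of Clec2g, a C-type lectin gene of the natural killer receptor cluster, it was 326 and 211 against 18 and 51 (3.30). An exon of Adgrv1, an adhesion receptor of the inner ear, held 146 and 57 against 13 and 10 (3.13). In each of these both NZO samples exceeded both B6 samples, and the female held the higher NZO signal.

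The remaining gains included a region in the list of every sample of the series. At 7410 bases from Them5, a thioesterase of cardiolipin remodelling, the signal was 655 and 572 in NZO against 83 and 71 in B6 (log2 difference 3.22, SE 0.32, limma adjusted p = 0.000181). In an intron of Tecrl, an enoyl-CoA reductase-like gene, it was 527 and 190 against 34 and 41 (3.29). A region 116464 bases from Mtcl1, a microtubule cross-linker, had 311 and 259 against 41 and 39 (3.03). The last 2 of the 10 lay on chromosome 14 near Gm8104 and Gm7970, members of a multicopy gene family, with differences of 3.71 and 3.27. The Gm8104 region is 19800 bases wide, and reads of near-identical copies cannot be assigned with certainty.

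The largest loss in NZO lay between genes, 64850 bases from Sema3e, a secreted guidance cue (chr5:13959371-13960426). Its signal was 69 and 23 in the NZO female and male and 415 and 709 in the B6 female and male, a log2 difference of -3.49 (SE 0.42, limma adjusted p = 0.00119). The strains do not overlap, and within NZO the male was the lower, as in all 10 of the largest losses. Both samples of 129, NOD, PWK and WSB had a peak there, and the other 12 samples ran from 0 to 16.1 in scaled signal.

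Promoters, within 3000 bases of a start site, were 15 of the 62 losses (24.2%) and 25 of the 53 gains (47.2%), beside 30.5% of the 64096 regions. With coding genes only they were 5 of the losses (8.06%) and 13 of the gains (24.5%), beside 22.9%. At the start of Gm8113, of the same family as Gm8104, the signal was 76 and 26 in NZO against 547 and 661 in B6 (log2 difference -3.49, SE 0.39, limma adjusted p = 0.000776). At Olfr1033, an olfactory receptor gene in a stretch that is 92.1% repeat, it was 38 and 19 against 267 and 444 (-3.39). The promoter of Fggy, a carbohydrate kinase gene that is no member of the largest 10 and was named after its values were seen, had 171 and 32 against 595 and 672 (-2.83, SE 0.45, limma adjusted p = 0.013).

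Other losses lay in or near genes with known products. An exon of Slc30a7, a zinc transporter of the secretory pathway, held 79 and 22 in NZO against 425 and 516 in B6 (log2 difference -3.21, SE 0.43, limma adjusted p = 0.00242). At 21577 bases from Creb3l2, a membrane-bound transcription factor of the endoplasmic reticulum, the signal was 109 and 18 against 421 and 419 (-2.97). At 864577 bases from the cadherin gene Cdh8 it was 30 and 14 against 227 and 290 (-3.34). Each B6 value was above each NZO value in these regions.

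The other 4 of the 10 largest losses were distal. At 88423 bases from Fam98a, an RNA-binding protein gene, the signal was 63 and 20 in NZO against 458 and 383 in B6 (log2 difference -3.28). This region had a peak in all 12 other samples. At 121078 bases from Mpped2, a phosphoesterase gene, the signal was 66 and 14 against 271 and 351 (-3.05). Regions 276021 bases from Gm28363 and 249201 bases from Armc1 had differences of -3.14 and -2.95. There the 12 other samples did not exceed 1.14 and 1.72 in scaled signal, and the B6 samples had 1.74 and 3.52, and 2.55 and 3.14, on that scale.

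**Figure D4:**
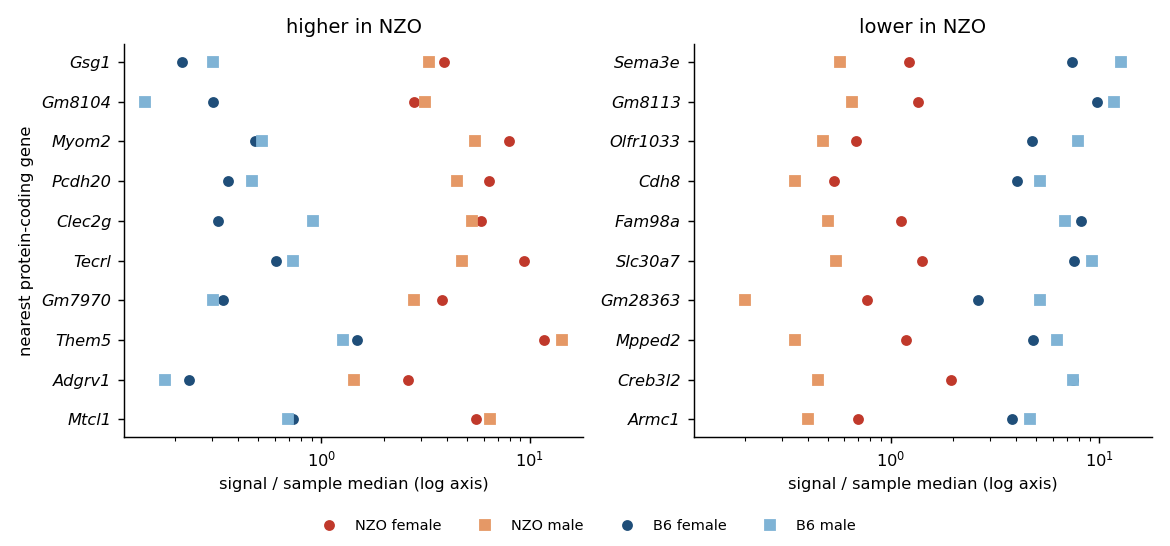
Signal divided by the median of the sample (log axis) in the 4 samples for the 10 called regions with the largest difference in each direction, by the nearest protein-coding gene. In every line both NZO samples lie on 1 side of both B6 samples, which the choice of these regions required. Among the losses the NZO male is always the lowest.

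A region with the islet gene G6pc2 as its nearest coding gene was also called. It lies in Abcb11, the bile salt export pump gene, where Gm13613 starts, and its nearest coding start site, 26047 bases away, is that of G6pc2, the glucose-6-phosphatase catalytic subunit of islets (chr2:69246045-69249523). The signal was 63 and 22 in the NZO female and male and 225 and 334 in the B6 female and male, a log2 difference of -2.60 (SE 0.45, limma adjusted p = 0.0218). With all 16 samples in the fit it was -2.52 (SE 0.37, limma adjusted p = 0.000939), and without the NZO male it stayed called (adjusted p = 0.0178). The promoter of G6pc2 itself had scaled signals of 3.77 and 1.90 in NZO and 4.95 and 5.00 in B6 and did not pass (log2 difference -0.89, limma adjusted p = 0.376). This region, and those of the next 2 paragraphs, were named after their values were seen.

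All 5 calls on chromosome 19 were gains. They lay at the promoter of Ankrd22, an ankyrin repeat gene (125 and 174 in NZO against 19 and 33 in B6, log2 difference 2.75), at the promoter of the cleavage factor gene Cstf2t (1.34), in introns of the sphingomyelin synthase gene Sgms1 (2.69) and of Rbm20, a splicing factor gene (2.64), and 52161 bases from Aldh1a1, a retinaldehyde dehydrogenase gene (2.96). With each chromosome centred on its own median, the differences were 1.91, 0.50, 1.85, 1.79 and 2.12, the limma adjusted p ran from 0.129 to 0.456, and none was called. In that fit 75 regions were higher in NZO and 86 lower over all chromosomes, of which 0 and 2 lay on chromosome 19.

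Further promoters were called away from chromosome 19. The start of Desi2, a deSUMOylating isopeptidase gene, had 1337 and 1389 in NZO against 618 and 530 in B6 (log2 difference 1.49, SE 0.19, limma adjusted p = 0.00199). That of the complement regulator Cd59a had 213 and 250 against 58 and 35 (2.57), and that of Ugt1a6b, a glucuronosyltransferase gene, 105 and 125 against 25 and 26 (2.36). That of the aldo-keto reductase gene Akr1e1 was lower, at 1073 and 565 against 1554 and 1943 (-0.92, SE 0.17, limma adjusted p = 0.0354). At 169134 bases from it a region was higher, at 1187 and 773 against 129 and 157 (2.98, limma adjusted p = 4.01e-05). In none of the 5 do the strains overlap.

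Of the 115 regions called among 64096, 16 had a signal over 50 times the median in all 4 samples, 10 higher and 6 lower in NZO, out of 20 such regions. The one with the smallest p lay 61893 bases from Ccnh at the start of Gm4076 (chr13:85126553-85127515). It had 19604 and 15927 in NZO against 2867 and 2880 in B6 (log2 difference 2.86, SE 0.05, limma adjusted p = 4.29e-16). The 12 other samples ran from 20.4 to 1336 there in scaled signal (median 43.3), beside 242 and 290 in NZO and 34.1 and 34.7 in B6. The SE comes from the fit with an intensity trend in the variance model, and without that trend 0 regions were called. The others of the 16 differed by 0.39 to 0.76 or by -0.50 to -0.31. Of the 10 higher ones 7 were at least 78.9% repeat, and the 6 lower ones were at most 11.6% repeat. These shares count only bases marked as repeats, so a low share does not show that a sequence occurs once in the genome. The paper filtered blacklisted regions out of its peaks, and no such filter was applied here. Reads from several copies of a sequence cannot be separated in these lists.

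The fit with all 16 samples gave more calls. Of 40930 regions, 737 (1.80%) were higher in NZO than in B6 and 857 (2.09%) lower. On chromosome 19, 357 of 975 tested regions (36.6%) were higher and 1 lower, beside 0.14% to 1.54% higher on the other chromosomes. Without the NZO male, where the lone NZO sample is taken to vary like the other groups, 152 regions (0.371%) were higher, 70 of them on chromosome 19, and 81 (0.198%) lower. Of the 115 regions called with 4 samples, 72 were tested with 16, 53 were called the same way and 44 were called the same way without the NZO male.

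Calls were scattered over the genome with a few clusters. Of 502 windows of 5 Mb with regions, 90 held a called region. The window of 40 to 45 Mb on chromosome 14 held 4 calls, 3 higher and 1 lower, and 267 of its 906 regions (29.5%) were called in NZO only against 35 in B6 only. Gm8104, Gm7970 and Gm8113 lie there, and since copies of such a family share reads, the counts of this window are uncertain. The window of 20 to 25 Mb on chromosome 12 held 3 losses and 99 NZO-only regions of 685 (14.5%). NZO-only shares of 24.1% and 21.1% were found at 65 to 70 Mb of chromosome 13 and 5 to 10 Mb of chromosome 7, with no call in the fit.

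Regions called in 1 strain only were about as many in each direction. There were 6784 in NZO only (3.30%) and 6495 in B6 only (3.16%). Their signal was low, with median scaled values of 0.348 in the NZO female and 0.5 in the NZO male for the former and 0.321 and 0.357 in the B6 female and male for the latter. With the more significant part of each list the counts were 2563 and 3832. Restricting the strain lists to an irreproducible discovery rate of 0.05, which compares ranks between the female and the male, gave 2893 regions in the NZO list only and 17086 in the B6 list only.

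The strongest NZO-only regions were of several kinds. In an intron of Cwc27, a spliceosome cyclophilin gene, the signal was 257 in the NZO female and 190 in the NZO male with no peak in B6, and AJ, NOD, PWK and WSB also had it in both samples. At 13808 bases from Fignl1, an ATPase gene of homologous recombination, it was 271 and 178, and the other 12 samples did not exceed 0.469 in scaled signal against 3.35 and 3.24 in the NZO female and male on that scale. At the start of Rprl3, an RNase P RNA-like gene, it was 260 and 174, and all 12 other samples had a peak of 2.27 to 4.29 in scaled signal. The 3 examples differ in who shares them, since B6 alone lacks the last and NZO alone is high at the second.

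The remaining NZO-only regions of this rank included the promoter of Ifi27l2b, an interferon alpha inducible gene (211 and 197), which was also called in both samples of CAST and PWK. Others were 2 GC-rich regions near 22 Mb of chromosome 12 (223 and 147, 181 and 141). Their nearest coding gene, Ywhaq, was 612782 and 738763 bases away. An intron of Esyt2 (182 and 138) and a region 66186 bases from the ligand gene Wnt2 (243 and 125) completed the 8. No region near a known beta cell gene was among the 8.

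The strongest B6-only region, 195857 bases from the adhesion gene Chl1, had 241 in the B6 female and 218 in the B6 male. It was 100% repeat, as the seventh sequence above shows, and 2 of the 12 other samples had a peak there. Regions with H60c and Raet1d as the nearest coding genes, which encode ligands of the natural killer receptor NKG2D, lay 157321 and 117943 bases from their start sites. Their signals were 181 and 169, and 114 and 138, and they were 96.7% and 54.4% repeat. Introns of Galnt14 and Galntl6, which are genes of O-glycosylation, held 177 and 132 and 99 and 310. All 12 other samples had a peak at both, so NZO alone lacked these calls.

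The 3 others were a promoter of Gm45844 (224 and 176) and regions nearest to Mup9, a major urinary protein gene (107 and 121), and to the trypsinogen gene Prss2 (101 and 150). The last 2 lay 62116 and 41099 bases from the start sites of these genes. The Mup9 and Prss2 regions were each called in 1 of the 12 other samples. Both are in clusters of near-identical genes.

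The 2 sets differed in where they lay. Promoters, taken as within 3000 bases of a start site, were 20.3% of NZO-only and 13.5% of B6-only regions, beside 20.4% of all 205341. Introns were 36.6% and 41.2% beside 38.2% of all, intergenic sequence 38.3% and 41.4% beside 37.3%, and exons 4.82% and 3.85% beside 4.09%. The median distance to a coding start site was 29806 bases for NZO-only and 60602 bases for B6-only regions, beside 38278 bases for all. Regions mostly of repeat were 12.6% and 8.28%, beside 8.63% of all regions. The NZO male, whose signal near start sites was the highest, enters only 1 of the 2 sets, and its part was not tested.

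The calls of the other 12 samples, which the rule did not use, are given as a description with no test. Of the NZO-only regions 1125 (16.6%) were called in no other sample, against 381 (5.87%) of the B6-only regions, and 61 (0.899%) and 151 (2.32%) were called in all 12. Over all 205341 regions these shares were 27.2% and 21.7%. Both WSB samples had 42.2% of the NZO-only and 58.0% of the B6-only regions, beside 50.7% of all regions, and both CAST samples 39.8% and 44.5%, beside 47.4%. Both AJ samples had 10.0% and 19.2%, beside 29.8%. For each of the 6 strains the share was the larger for B6-only regions, and no test over regions was made.

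For the 115 called regions, the nearer of the 2 strains varied. Of the gains measured in both samples of PWK, 34 of 46 (73.9%) were nearer to NZO, and of those in 129, 25 of 44 (56.8%). In CAST, NOD and WSB the shares were 30.6%, 31.9% and 37.7%. Of the losses, CAST was nearer to NZO in 34 of 53 (64.2%), and 129, AJ and NOD in 31.5%, 29.6% and 30.2%. No strain was on the same side for nearly all regions.

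Sequence letters were counted in 300 bases around each summit. AP-1 letters (TGANTCA, both strands), bound by the FOS and JUN families, were in 21.1% of all regions, in 27.8% of NZO-only regions and in 16.7% of B6-only regions. Among regions called in a single sample they were in 18.0% for the NZO female, 25.7% for the NZO male, 10.4% for the B6 female and 23.8% for the B6 male. The single-sample shares thus differ more between the B6 samples than the shares of the strains do. In NZO-only regions with the higher scaled signal in the female the share was 20.1%.

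Among islet factors, letters of NeuroD, PDX1/NKX, FOXA and RFX were less frequent in NZO-only than in B6-only regions. Those of MAF and HNF1 were about as frequent. NeuroD E-box letters (CAGATGG) were in 8.57% of all regions, 7.46% of NZO-only and 11.1% of B6-only regions. PDX1/NKX letters (TAATTA) were in 9.71%, 7.53% and 12.0%, FOXA letters (TGTTTAC) in 7.48%, 6.00% and 9.93%, and RFX letters (GTTGCCATG) in 0.806%, 0.545% and 0.878%. In NZO-only regions with the higher scaled signal in the female, PDX1/NKX letters were in 9.55%, near the share of all regions. NeuroD letters were in 7.44% of these, FOXA letters in 5.91% and RFX letters in 0.475%. MAF letters (TGCTGAC) were in 6.86% of all, 7.21% of NZO-only and 7.37% of B6-only regions, and HNF1 letters (TTAATNATT) in 2.83%, 2.64% and 2.68%. The NZO male alone held the lowest share of NeuroD letters among the single-sample sets, 6.05%, against 8.43% to 9.03% in the others. ISRE letters (GAAANNGAA), found at interferon genes, were in 10.4% and 10.3% beside 10.2% of all regions. A match is a description of the reference sequence and not a bound site.

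**Figure D5:**
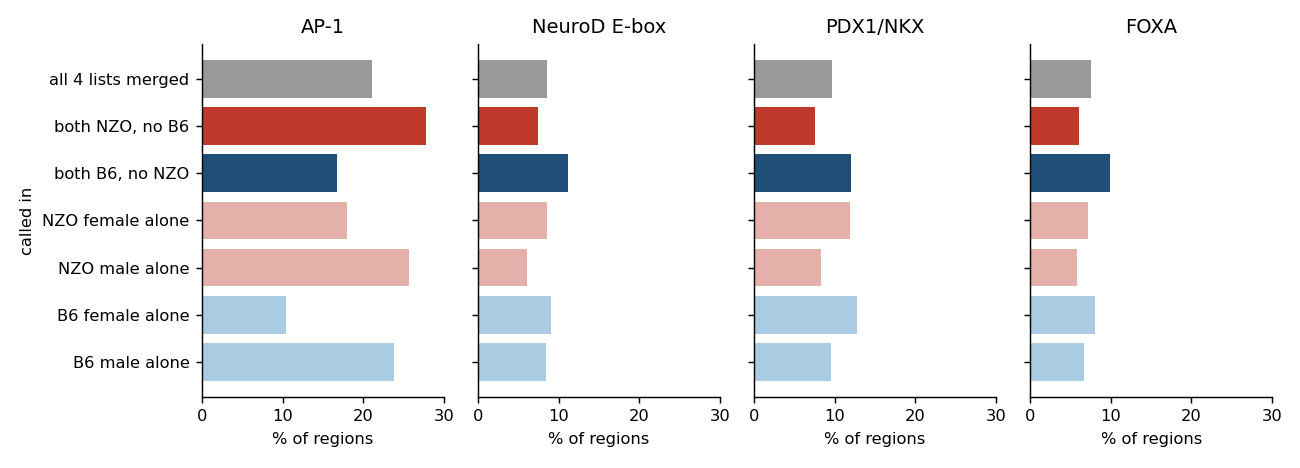
Share of regions (percent) with the letters of 4 motifs in 300 bases around the summit, for all merged regions, regions called in both samples of 1 strain and neither of the other, and regions called in 1 sample alone. AP-1 letters are in 27.8% of NZO-only and 16.7% of B6-only regions, and range from 10.4% to 25.7% among single samples.

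Promoters of genes of islet function were examined by 9 lists, which hold 197 distinct genes with a start site region called in all 4 samples. None passed the limma test in either direction, while 17 of the 197 were above and 9 below B6 at an unadjusted p under 0.05. Over all 64096 regions 7466 had an unadjusted p under 0.05 in either direction. That share is close to the share of the 197, so these counts show nothing particular to the lists. Among the 17 were Cpt1a, Scd2, Syt7, Ifit1, Ifit2, Sorcs1 and Glis3, which lie on chromosome 19. With any region within 3000 bases of a start site the count was also 0 in each list. Over all coding promoters, 16 of 12035 were higher and 5 lower. The median promoter difference over all coding genes was 0.21, with -0.14 between the females and 0.58 between the males. Both NZO samples lay above both B6 samples at 23.5% of these promoters and below at 17.8%.

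No promoter of the beta cell list passed the test with 4 samples. Of the 34 promoters of the beta cell list called in all 4 samples, both NZO samples lay above both B6 samples at 5 (14.7%) and below at 9 (26.5%). Over all coding promoters these shares were 23.5% and 17.8%. The median difference was -0.14, beside 0.21 over all coding promoters. The promoter of Pcsk1, the proinsulin convertase, had scaled signals of 2.75 and 1.30 in the NZO female and male and 5.14 and 3.27 in the B6 female and male (log2 difference -1.11, SE 0.42, limma adjusted p = 0.331). In the fit of all 16 samples it was -1.03 (limma adjusted p = 0.0477), and without the NZO male the adjusted p was 0.719. Ins1, the insulin gene on chromosome 19, had 6.89 and 2.00 against 4.2 and 3.43 (-0.03), where the strains overlap. Its 16-sample difference of 0.05 became -0.85 with each chromosome centred on its own median (limma adjusted p = 0.197).

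A further pair of beta cell list genes had promoter values that did not overlap between strains. Syt7, the calcium sensor of insulin granule release, had 3.8 and 3.62 in NZO against 2.36 and 1.46 in B6 at its promoter, a log2 difference of 0.99 that did not pass (limma adjusted p = 0.346). It is on chromosome 19, and with all 16 samples it passed (adjusted p = 0.0157) but not with each chromosome centred on its own median (adjusted p = 0.690). Snap25, a membrane fusion protein gene, had 4.27 and 2.58 against 5.23 and 6.45 (-0.81, adjusted p = 0.378). An intron of Snap25 held a region called in NZO and not in B6, with signals of 92 and 45. It was also called in 6 of the 12 other samples, including both samples of CAST, PWK and WSB.

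Genes of glucose-responsive metabolism had more promoters above B6 than below. Of 24 promoters 9 (37.5%) had both NZO samples above both B6 samples and 1 (4.17%) below, beside 23.5% and 17.8% of all coding promoters. The median was 0.60, but -0.06 between the females and 1.07 between the males. Over all coding promoters these medians were 0.21, -0.14 and 0.58. Pdk4, which restrains pyruvate dehydrogenase, had scaled signals of 1.5 and 3.88 against 0.786 and 0.732 (log2 difference 1.64, limma adjusted p = 0.232). With all 16 samples it passed, also with each chromosome centred on its own median (adjusted p = 0.0152), and without the NZO male it did not (adjusted p = 0.288). Scd2, a fatty acid desaturase gene on chromosome 19, had 1.14 and 2.55 against 0.679 and 0.375 (1.72, adjusted p = 0.234), and 0.90 in the 16-sample fit centred within chromosomes (adjusted p = 0.155).

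Interferon and antigen presentation genes had 10 promoters above (34.5%) and 1 below (3.45%) of 29, beside 23.5% and 17.8% of all coding promoters. Their median was 0.51, with -0.12 between the females and 1.10 between the males. Ifit1 and Ifit2, interferon-induced genes that lie together on chromosome 19, had differences of 0.91 and 1.00, near the chromosome median of 0.85. H2-D1, a class I antigen presentation gene on chromosome 17, had scaled signals of 5.64 in the NZO female, 14.8 in the NZO male, 4.84 in the B6 female and 2.75 in the B6 male (log2 difference 1.32, limma adjusted p = 0.231). The leukocyte marker sum of 6.4 in the NZO male against 0.893 to 1.32 in the others stands beside these values, and its part was not tested. With all 16 samples the promoters of Ifit1, Ifit2 and H2-D1 were higher, and without the NZO male none was. With each chromosome centred on its own median, the 16-sample differences of Ifit1 and Ifit2 were 0.09 and 0.18 (limma adjusted p = 0.855 and 0.692) and were no longer called.

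The dedifferentiation list had 8 promoters called in all 4 samples, with a median of 0.78, of -0.01 between the females and 1.57 between the males. Of these 4 (50%) were above and 0 below, beside 23.5% and 17.8% of all coding promoters. Hexokinase genes Hk1 and Hk2, normally kept low in beta cells, had 1.64 and 5.10 against 1.52 and 1.23, and 2.29 and 4.2 against 1.96 and 1.20. The NZO male held the highest value at both. The endoplasmic reticulum stress list had 3 promoters above (10.7%) and 4 below (14.3%) of 28, with a median of 0.14. The cell cycle list had 6 (20%) and 7 (23.3%) of 30, with 0.07.

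The immediate early and AP-1 genes themselves had 0 promoters above and 2 (10%) below of 20, with a median of 0.11. The alpha, delta, PP and epsilon cell list had 1 (14.3%) and 3 (42.9%) of 7 (-0.27). Among the diabetes and obesity genes of mouse crosses 6 promoters (33.3%) were above and 3 (16.7%) below of 18 (0.23). Over all coding promoters 23.5% were above and 17.8% below. Sorcs1, a sorting receptor gene of a diabetes locus, had 2.3 and 2.55 in NZO against 1.04 and 1.23 in B6, and Glis3, a beta cell transcription factor gene, 1.64 and 2.33 against 1.16 and 0.571. Both are on chromosome 19, and centred within it their 16-sample differences were 0.27 and 0.42 (limma adjusted p = 0.542 and 0.418). Stxbp5l, an exocytosis regulator of chromosome 16, had 5.25 and 6.35 against 3.50 and 2.04 (log2 difference 1.10, limma adjusted p = 0.263).

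In the fit of all 16 samples, 10 promoters of the 9 lists were higher in NZO, and Pcsk1 was lower. The higher were Syt7, Scd2, Cpt1a, Pdk4, Ifit1, Ifit2, H2-D1, Sorcs1, Stxbp5l and Glis3, of which 7 lie on chromosome 19. Over all coding promoters 330 of 10603 were higher, 229 of them on chromosome 19, and 51 lower. With each chromosome centred on its own median 3 of the 10 passed, Pdk4, H2-D1 and Stxbp5l. Without the NZO male none of the 11 did, beside 53 higher and 5 lower coding promoters.

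Distal regions nearest to the list genes gave 2 calls with 4 samples, and the regions given here were named after their values were seen. Over all 64096 regions 53 (0.0827%) were higher and 62 (0.0967%) lower, and 1 call in a list is too few to compare with these shares. Of 405 regions called in all 4 samples with a beta cell gene as the nearest, 0 were higher and 1 lower, the region near G6pc2 described above. Of 96 nearest to genes of the other endocrine cells, 1 was lower, 157627 bases from Etv1, a transcription factor gene, with 579 and 197 in NZO against 1023 and 1166 in B6 (log2 difference -1.45, limma adjusted p = 0.0386). It was -0.82 between the females and -2.08 between the males, and with 16 samples the call (adjusted p = 0.00937) was lost without the NZO male (adjusted p = 0.22). An intron of Cacna1c, a voltage-gated calcium channel gene, had 137 and 150 against 46 and 31 (2.13, adjusted p = 0.0679). With 16 samples that difference was 2.21 (SE 0.33, adjusted p = 0.0011), it was called without the NZO male (adjusted p = 0.0235), and the other 12 samples ran from 0.346 to 0.742 in scaled signal against 1.69 and 2.73 in NZO on that scale.

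Regions called in NZO only were 1.91% of those nearest to beta cell genes, 6.02% for the interferon list and 6.61% for the diabetes list, and 1.5% to 3.84% for the other 6 lists, beside 3.30% of all regions. Of the 42 regions of the diabetes list, several lay in or near Sorcs1 on chromosome 19, where the background share was 10.9%. The promoter of Thrsp, a lipogenic regulator gene, was called in B6 only, with 39 and 69, and also in 10 of the 12 other samples. A start site region of Tcf7l2, a WNT pathway factor gene on chromosome 19, was called in NZO and not in B6, with 34 and 35. It was also called in 9 of the 12 other samples, including both samples of CAST, NOD and WSB.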

How the data were processed

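Peak lists of 16 samples were used, 4 of them for the main comparison, with groups and sexes taken from the labels. Per the submitters' processing notes and the methods, the authors trimmed reads with cutadapt 2.0, aligned them to mm10 with Bowtie2 2.3.4.1, used SAMtools and Picard 2.9.2, and ran MOSAiCS on each sample to call peaks (FDR 0.05). Whether reads were shifted for the transposase was not given in the sources used here, and all strains were aligned to the B6-derived reference. The deposited lists give a summit signal and a mean signal per peak, which are whole-number coverage, and a −log10 p-value. The deposited strain lists hold peaks reproducible between the female and the male at an IDR of 0.05, with a signal and −log10 p and q-values. Read totals were not used here and the depth is unknown, so no counting interval was given.

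Peaks of the 4 lists that overlapped by 1 base or more were merged on chromosomes 1 to 19 (Python 3.11.15, numpy 2.4.6, pandas 2.3.3, scipy 1.17.1). The highest summit signal of a region was taken as log2(signal + 1) and centred on the median of the sample over regions called in all 4. Regions were tested with limma 3.58.1 in R 4.3.3 with an intensity trend and Benjamini-Hochberg adjustment, after a run on simulated data. Fold changes are on the log2(signal + 1) scale, which understates changes of low signals. Regions called in 1 strain only got no test. Promoters lie within 3000 bases of a start site of GENCODE M21 on GRCm38, and gene list promoters within 500 bases. Named in each direction were the 10 called regions of largest change among those where the strains do not overlap. The 8 one-strain regions with the highest lower scaled signal in each direction, list promoters past the test, and leading 5 Mb windows were also named. Regions, lists and tests were chosen with earlier results of these data known. Alternatives changed the scale, the filter, the variance model, the samples and the block, and those that centre within chromosomes or promoters, or leave the NZO male out of the 16-sample fit, were chosen after seeing the data.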

Additional observations from a re-analysis of the deposited data

Results flagged for a closer look

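In 9 summaries the NZO minus B6 difference was of opposite sign in the females and the males. With 1 sample per strain and sex the difference between the sexes was not tested, and it cannot be told apart from the NZO male standing apart. The number of peaks differed, as NZO minus B6, by -11133 between the females and by 32387 between the males, which are 43520 apart. The median over promoters of all protein-coding genes was -0.14 in females and 0.58 in males on the log2 scale, 0.72 apart.

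The same held for 7 gene lists. The male median exceeded the female median by 1.58 for dedifferentiation genes (-0.01 and 1.57), by 1.23 for immediate early genes (-0.62 and 0.61), and by 1.22 for interferon genes (-0.12 and 1.10). It exceeded it by 1.13 for glycolysis and lipid synthesis (-0.06 and 1.07), by 0.80 for diabetes and obesity genes (-0.05 and 0.75), by 0.74 for endoplasmic reticulum stress (-0.25 and 0.49), and by 0.53 for the cell cycle (-0.21 and 0.32). None of these differences was tested.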

How the results depend on the processing

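The numbers of regions called by limma, 53 higher and 62 lower, depended on the variance model, the scale and the samples. Higher and lower calls were 0 and 0 with no intensity trend, 14 and 19 with the mean signal, 16 and 15 among regions called in at least 3 samples, 25 and 15 with GC bins, 26 and 36 with promoters centred apart, 31 and 162 with no centring, and 32 and 33 with quantile normalization. With all 16 samples they were 737 and 857, 317 and 553 when centred within each chromosome, 616 and 664 with a sex block, and 152 and 81 without the NZO male. Same-numbered samples share only their sex, and with sex as a replicate block the 4-sample fit called 95 and 110. Leaving out 1 sample gave 0 to 83 higher and 0 to 76 lower, both 0 without either NZO sample, 83 and 76 without the B6 female, and 77 and 31 without the B6 male. None of the 20 named regions changed sign in any alternative that gave it a value. The cause of these changes was not tested, beyond the fewer samples of some fits.

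Regions in NZO only and B6 only numbered 2563 and 3832 in the more significant part of each list and 2893 and 17086 in the strain lists. Leaving out 1 sample gave 9764 to 57351 and 8856 to 27651, the extremes being without the B6 male and the NZO female, and without the NZO male and the B6 male. The peak number difference ran from -6757 without the NZO male, a reversal, to 28011 without the NZO female. Promoter shares within 1000 bases were 8.99% and 6.07%, and AP-1 shares in 200 bases 24.8% and 13.9%. The chromosome 19 median stayed positive, at 0.71 with GC bins, 0.55 with the mean signal, 0.71 for distal regions, and 0.76 to 0.92 without 1 sample.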
